A study of Mus musculus with 4 samples.

Results

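The genes that encode the proteasome were examined in mouse splenic Treg, the regulatory T cells that carry Foxp3 and restrain immune responses. Members were the protein-coding genes whose GENCODE symbol starts with Psma, Psmb, Psmc, Psmd, Psme, Psmf or Psmg and a digit, and all 50 of them were found among the 38924 genes of the count table and in the authors' regularized log table. One of them, Psmc3ip, matched by its symbol alone: it encodes a partner of the recombination machinery and is not a subunit. The series compares resting Treg with activated Treg, 2 samples of each, stated to come from biologically independent animals. Both populations carry the same printed sorting gate for CD4-positive, Foxp3-positive cells, and no genotype, treatment, strain or age is given for either. The count table names the group of each column and not its sample, so each group's libraries are called A and B in column order. No label pairs a resting with an activated library. Values are given in the order A, B.

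The proteasome degrades proteins tagged with ubiquitin. Its core particle is a barrel of alpha and beta rings, in which 3 beta subunits cut the substrate. A regulatory particle of ATPases and non-ATPases caps the barrel, recognises the ubiquitin chain, unfolds the substrate and feeds it in. In lymphocytes and under interferon gamma, the 3 constitutive catalytic subunits (Psmb5, Psmb6 and Psmb7) are replaced in newly built particles by the immunoproteasome subunits (Psmb8, Psmb9 and Psmb10), which favour peptides that fit MHC class I molecules. Psme1 and Psme2 encode an alternative cap, PA28, which interferon gamma also induces. The transcription factor Nfe2l1 raises many subunit genes together when proteasome activity is short.

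Most proteasome transcripts were abundant, and 0 of the 48 members that passed the filter on low counts were called between activated and resting Treg. The 2 libraries of each group differed in most of these genes together. In 38 of 48 both of these gaps exceeded the group difference, a count whose share over all genes was not computed. Levels are given as CPM, counts scaled to library depth and between libraries by the trimmed mean of M values. Fold changes are on the log2 scale, activated over resting, from edgeR, with their standard error (SE).

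Some promoters of the members are shown first, since subunit genes are known for shared control. RefSeq promoters on GRCm38.p6 matched 42 of the 50 members by symbol. Each window of 250 bases before the start was searched on both strands for 3 motifs: TGACNNNGC, the core of the antioxidant response element that Nfe2l1 and Nfe2l2 bind, an interferon-stimulated response element read as GAAA, any 2 bases and GAAA, and TTCNNNGAA, a STAT site. The first was found in 5 of 42 members (11.9%, against 10.2% of 32851 promoters), the second in 3 (7.14% against 2.98%) and the third in 2 (4.76% against 7.02%). A member counted once if any of its promoters matched, while the share over all is of single promoters, so the units differ. With so few matches these shares are a description only. The stretches below, printed 5′ to 3′ up to the first annotated exon base, belong to 2 constitutive catalytic subunits, 1 immunoproteasome subunit and the member with the smallest p of the group comparison. Capitals mark motif matches.
Psmb5 (chr14:54618023-54618245, minus strand): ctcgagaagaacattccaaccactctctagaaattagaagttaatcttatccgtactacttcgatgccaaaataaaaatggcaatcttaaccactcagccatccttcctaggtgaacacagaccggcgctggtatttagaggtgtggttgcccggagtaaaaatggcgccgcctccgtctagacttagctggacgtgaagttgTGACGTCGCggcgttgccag
Psmb6 (chr11:70525107-70525356, plus strand): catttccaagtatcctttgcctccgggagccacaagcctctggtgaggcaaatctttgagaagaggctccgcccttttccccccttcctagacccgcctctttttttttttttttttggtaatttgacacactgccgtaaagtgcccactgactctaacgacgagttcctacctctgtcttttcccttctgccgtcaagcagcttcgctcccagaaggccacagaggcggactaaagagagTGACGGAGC
Psmb10 (chr8:105938445-105938642, minus strand): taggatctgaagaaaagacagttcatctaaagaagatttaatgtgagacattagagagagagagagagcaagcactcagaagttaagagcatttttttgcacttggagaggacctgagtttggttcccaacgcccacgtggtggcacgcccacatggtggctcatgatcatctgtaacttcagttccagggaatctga
Psmc6 (chr14:45329574-45329787, plus strand): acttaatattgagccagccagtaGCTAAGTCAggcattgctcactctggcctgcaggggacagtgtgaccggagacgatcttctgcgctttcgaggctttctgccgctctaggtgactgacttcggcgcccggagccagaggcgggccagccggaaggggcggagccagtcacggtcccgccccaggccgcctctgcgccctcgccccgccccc
The match in Psmb5 began 47 bases before the RefSeq start, that in Psmb6 9 bases before it, and that in Psmc6 227 bases before it, the last on the opposite strand. Psmb10 held none of the 3 motifs in this stretch. Psmb8 held a STAT match 97 bases before its RefSeq start, in a window that overlaps annotated exons and is not printed.

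Library totals ranged from 20282062 to 31851982 counts, and the 50 members took 0.709% and 0.864% of all counts in the resting libraries and 0.730% and 0.922% in the activated ones. Activated B stood apart in genes detected, with 23398 against 18928 to 19610 in the other libraries, although its total was the smallest. Foxp3 was between 35.1 and 38.8 CPM in all 4. Although the printed gate is the same for both groups, Cd44, an adhesion receptor that activated T cells carry at a high level, was at 145 and 213 CPM in the resting libraries against 329 and 335 in the activated ones. Markers of other spleen cells were present too. The summed level of 10 macrophage and monocyte markers was 648 and 21.2 CPM in the resting libraries and 683 and 84.6 in the activated ones. That of 10 plasmacytoid dendritic cell markers was 189 and 207 CPM in resting and 1264 and 462 in activated libraries. Its genes were unlike: Siglech was at 0.778 and 0.261 against 280 and 58.7 CPM, and Pacsin1 at 62.5 and 71.9 against 69.4 and 80.2. That of the 9 tested of 10 conventional dendritic cell markers was 547 and 206 against 4211 and 1423 CPM. Cd74 alone made up most of this last sum in every library, at 483 and 183 against 3410 and 1211 CPM. Summed proliferation markers (8 genes) were at 233 and 1069 CPM in the resting libraries and 388 and 731 in the activated ones. In such bulk samples fewer cells of a type and less RNA per cell cannot be told apart.

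Levels of different genes were compared per length, as counts per kilobase of annotated exon scaled to the same sum in every library (TPM), averaged over the 4 libraries. The PA28 genes led, with Psme2 at 655 TPM and Psme1 at 617. Next came the beta ring gene Psmb2 (468 TPM) and the alpha ring gene Psma6 (457), whose ranges over the libraries overlapped. The immunoproteasome genes Psmb10 and Psmb8 followed at 386 and 376 TPM, again with overlapping ranges, while Psmb9 was at 179. Of the constitutive catalytic genes Psmb6 was at 327 TPM, Psmb5 at 186 and Psmb7 at 75.8. Median levels were 214 TPM for the 7 alpha ring genes, 254 for the 6 regulatory ATPases, 150 for the 11 regulatory non-ATPases and 54.0 for the 4 core assembly chaperones. Psmd9, a chaperone of regulatory particle assembly, had the lowest level of the tested members on this scale, at 9.73 TPM. The order changes with the length used. With the longest transcript Psme2 and Psme1 still led, but Psmb8 was at rank 3 with 509 TPM, above Psmb2 at 499.9, and Psma6 was at rank 8. Psmd9 was then at 20.4 TPM, above Psme4 at 14.0 and Psmc3ip at 12.9, and Psmb6 was at 483.

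Both tissue-specific core genes were at or near 0. Psma8, the alpha subunit of male germ cells, had 4 and 0 counts in the resting libraries and 20 and 8 in the activated ones. Psmb11, the catalytic subunit of thymic cortical epithelium, had 3 counts in resting B and 0 in each of the other libraries. Neither passed the filter, and no fold is given.

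**Figure D1:**
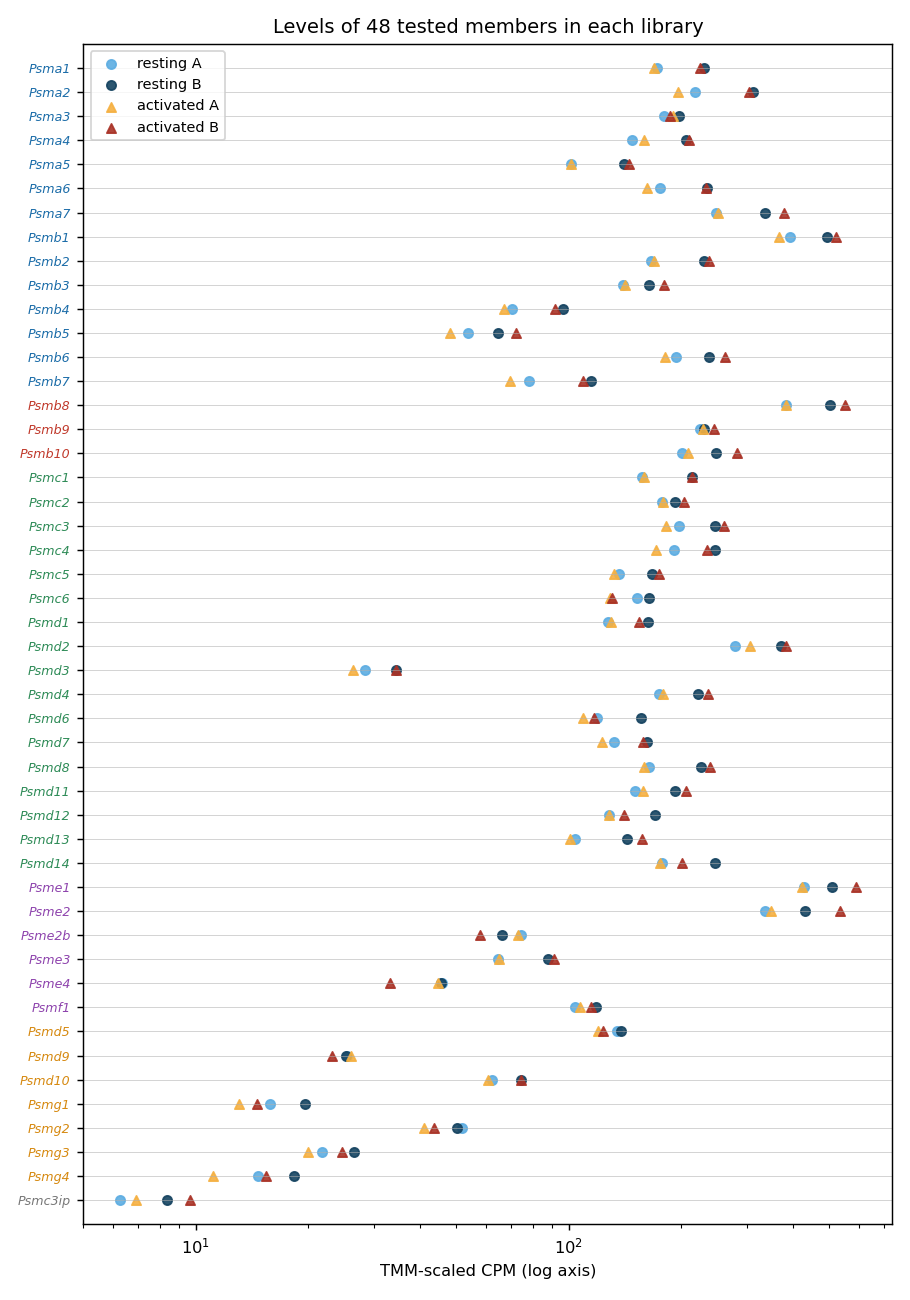
TMM-scaled CPM (log axis) of each tested member (vertical axis, names coloured by role) in the 4 libraries; circles are resting, triangles activated, and dark symbols the B libraries. Most members have their 2 darker symbols to the right of the 2 lighter ones, as in Psmb8 (503 and 551 against 384 and 382 CPM), while resting and activated symbols of the same letter lie close.

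The comparison of activated with resting Treg was then read by role. By edgeR's quasi-likelihood test over all 14235 genes tested, 0 of 48 members passed an adjusted p of 0.05 (percent called over all genes: 0), and the smallest adjusted p of a member was 0.769. At an unadjusted p under 0.05, 0 members were higher and 0 lower, where 6.3% of all genes were higher and 2.61% lower. DESeq2 called 0 members, against 2.32% of genes higher and 0.845% lower. The median of the members' log2 fold changes was -0.0028 and the median of their sizes regardless of sign 0.072, against 0.24 over all genes tested. The members were more abundant, with a median level of 155 CPM against 17.3 over all genes tested. Their median SE was smaller, 0.235 against 0.318. The medians and shares over all genes given here are not matched for level, so they do not show the members to be unusually stable. All 48 of the 95% intervals included 0, and 45 of them lay within 1 log2 unit of it, that is, within a doubling or halving. The exceptions were Psmg1, Psmg4 and Psmc3ip. The median half-width of the intervals was 0.601 log2 units, so smaller differences were mostly not detectable with 2 libraries a group.

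Among the immunoproteasome genes, Psmb8, the catalytic subunit that takes the place of Psmb5, was at 384 and 503 CPM in the resting libraries and 382 and 551 in the activated ones. The groups overlapped, and each activated library lay near the resting library of like level. The log2 fold change was 0.07 ± 0.26 (SE), with a 95% interval from -0.58 to 0.73. Psmb9, which replaces Psmb6, was at 225 and 230 CPM in resting and 229 and 246 in activated libraries. It was among the steadiest of all members, with a log2 fold change of 0.06 ± 0.16 and an interval from -0.35 to 0.47. Psmb10, which replaces Psmb7, was at 201 and 248 against 208 and 282 CPM, which overlap, and had a log2 fold change of 0.13 ± 0.23. All 3 lay above 0 with a median of 0.07, and 0 of 3 passed. That median is not fixed in sign, being -0.11 without activated B and 0.32 without activated A.

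Psmb8 and Psmb9 lie together in the MHC region of chromosome 17 (mm10, GENCODE M21), Psmb9 from 34181987 to 34187764 on the minus strand and Psmb8 from 34197721 to 34201454 on the plus strand. Psmb10 lies on chromosome 8 from 105935735 to 105938444. Exons of Tap1 on the other strand cover 5.79% of the exonic bases of Psmb9, and those of Gm20496 14.7% of Psmb8. The constitutive genes have such overlaps too: Nek6 on the other strand covers 11.8% of Psmb7, and Mir686 on the same strand 12.1% of Psmb5. No source used here gives the strand setting of the counting, so reads from such overlaps cannot be told apart.

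Of their constitutive partners, Psmb5, which carries the chymotrypsin-like activity, was at 53.6 and 64.7 CPM in the resting libraries and 48.1 and 72.3 in the activated ones. Here the activated libraries were both the lowest and the highest. Psmb6 was at 194 and 238 against 181 and 262 CPM and showed the same order. Psmb7 was at 78.4 and 115 against 69.4 and 109 CPM. Their log2 fold changes were 0.02 ± 0.26, 0.04 ± 0.25 and -0.11 ± 0.31, and 0 of 3 passed.

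The balance between the 2 sets of catalytic subunits was read as a ratio of counts per kilobase within each library, which no scaling between libraries can change. Psmb8 over Psmb5 was 1.90 and 2.07 in the resting and 2.11 and 2.03 in the activated libraries. Psmb9 over Psmb6 was 0.593 and 0.495 in the resting and 0.646 and 0.480 in the activated ones. In both pairs the groups overlapped, with group differences of 0.06 and 0.04 on the log2 scale. Psmb10 over Psmb7 was 5.15 and 4.33 in the resting libraries and 6.02 and 5.19 in the activated ones, and the groups did not overlap, by a margin of 5.15 against 5.19. The log2 ratio was 2.24 ± 0.18 (SD, n = 2) in resting and 2.48 ± 0.15 in activated Treg, a difference of 0.24. The smallest p that an exact permutation test (two-sided) allows in this design is 0.333, so it cannot call a difference of these ratios, and no other test was run on them. The sizes of the ratios depend on the exon lengths used, but their differences between libraries do not.

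**Figure D2:**
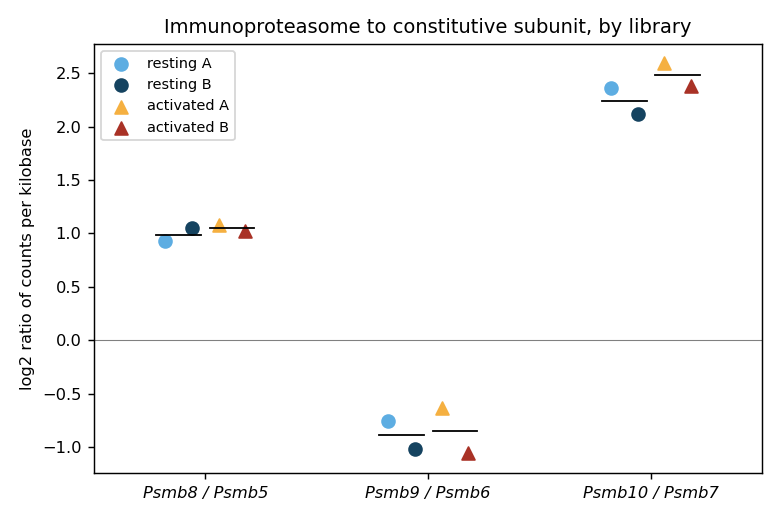
Log2 ratio of counts per kilobase (vertical axis) of each immunoproteasome gene to its constitutive partner (horizontal axis) in the 4 libraries; bars are group means. Resting and activated libraries overlap for Psmb8 over Psmb5 and for Psmb9 over Psmb6, and activated Treg lie slightly higher for Psmb10 over Psmb7 (means 2.24 and 2.48).

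The other core genes gave the same picture. Of the 14 alpha ring and constitutive beta ring genes 8 lay above 0 and 6 below, from -0.11 to 0.10 with a median of 0.01, and 0 passed. The 2 alpha ring genes with the smallest p were Psma7, at 248 and 337 against 251 and 377 CPM (0.10 ± 0.28), and Psma2, at 218 and 312 against 196 and 305 (-0.08 ± 0.30). In the beta ring they were Psmb3 (0.08 ± 0.21) and Psmb4 (-0.07 ± 0.26). Groups overlapped in all 14 genes.

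In the regulatory particle, 8 of 17 genes lay above 0 and 9 below, with a median of -0.0046, and 0 passed. Psmc6, an ATPase of the ring that unfolds substrates, was at 152 and 164 CPM in the resting libraries and 129 and 130 in the activated ones. Both activated libraries were below both resting ones, and its p was the smallest of all members, with a log2 fold change of -0.29 ± 0.16 (edgeR adjusted p = 0.769). Psmd6, a scaffold subunit of the lid, was likewise lower in both activated libraries, at 119 and 156 against 110 and 117 CPM (-0.28 ± 0.20). Psmd14, the deubiquitinase that removes the chain from the substrate, was at 178 and 246 against 175 and 201 CPM, with the groups overlapping (-0.17 ± 0.22). Psmc4, another ATPase, had a log2 fold change of -0.11 ± 0.24.

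Among the caps other than the regulatory particle, Psme2 had the highest fold change of all tested members. It was at 337 and 431 CPM in the resting libraries and 348 and 535 in the activated ones, and the groups overlapped (0.20 ± 0.27, interval from -0.49 to 0.90). Psme1 was at 428 and 507 against 423 and 588 CPM (0.11 ± 0.23). Both genes lie on chromosome 14, Psme1 from 55578123 to 55581529 and Psme2 from 55587441 to 55591113, on opposite strands. Psme4, which encodes the large nuclear activator PA200, was at 45.8 and 45.6 CPM in resting and at 44.6 and 33.2 in activated libraries (-0.23 ± 0.22). Psme2b is a copy of Psme2 on chromosome 11, and reads common to both could not be assigned from the table. Psme3 (0.03 ± 0.26) and the inhibitor gene Psmf1 (-0.0010 ± 0.17) lay near 0.

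Among the members, the assembly chaperones, which build the particles and leave them, lay on the lower side. All 7 were below 0 (over all genes 50.9% were below and 49.1% above), with a median of -0.16, and 0 passed. Pomp, a core chaperone outside the naming pattern, was at 0.05 on the log2 scale. Psmg1 was at 15.8 and 19.7 CPM in the resting libraries and 13.1 and 14.6 in the activated ones (-0.36 ± 0.25). Psmg2, its partner in the dimer that starts the alpha ring, was at 51.8 and 50.3 against 40.8 and 43.5 CPM (-0.28 ± 0.18). In both genes the activated libraries were below the resting ones. Psmd5, a chaperone of the regulatory particle base, was at 135 and 138 against 120 and 124 CPM (-0.16 ± 0.16), and Psmd9 was at -0.04 ± 0.20. The median of the 7 was -0.28 without activated B, its lowest value with a library left out, and -0.12 without activated A, its highest.

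Counted over all roles, the groups were separate in 6 of 48 members, where 37.2% of all genes tested were. In these 6 (Psmc6, Psmd5, Psmd6, Psme4, Psmg1 and Psmg2) the activated side was the lower one, as in 17.4% of all genes. The activated side was the higher one in 0 of 48, beside 19.8% of all genes. With a library left out edgeR still called 0 members, where it called 2.31% of genes without resting A and 1.28% without its B library, and, leaving out activated A, 0%, or activated B, 0.409%.

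**Figure D3:**
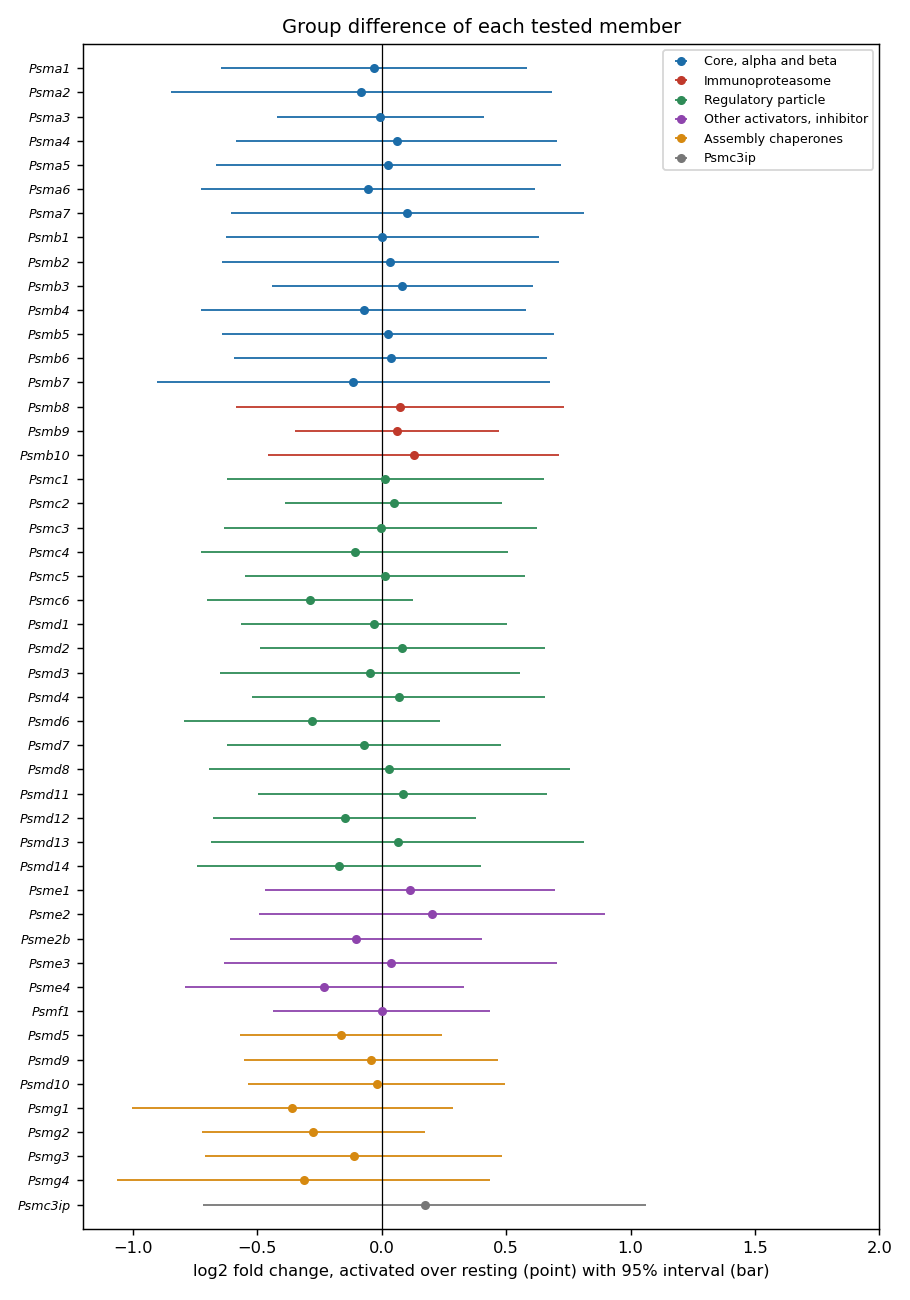
Log2 fold change of activated over resting Treg (horizontal axis; points) with its 95% interval (bars) for the 48 tested members, by role (colours). All bars cross 0, and the 7 assembly chaperones all have their points left of it, down to -0.36 for Psmg1.

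The larger difference lay between the libraries of each group. Resting B was above resting A in 44 of 48 members and activated B above activated A in 44 of 48, and both held in 43. Over all genes tested B was above A in 49.7% in resting and 48.3% in activated Treg. The median gap of the members was 0.34 in resting and 0.40 in activated libraries on the log2 scale, where that over all genes was 0 and -0.026. In 38 members each of the 2 gaps was larger than the size of the log2 fold change between groups. The share of all genes in which this held was not computed, so it cannot be called particular to the members. Each gap compares 1 library with 1 other, so it has no replicate check and no test. Scaled by total count alone, the median gaps were 0.30 and 0.34, with 42 of 48 members higher in B in each group.

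By role, the gap was largest in the core, at a median of 0.43 in resting and 0.51 in activated libraries. Psmb7 had the largest gap of all members in both groups, 0.55 and 0.65. The regulatory particle had medians of 0.36 and 0.38, with all 17 genes higher in B in both groups. The 2 sets of regulatory and core chaperones lay lower: 0.03 and 0.04 for the 3 of the regulatory particle, 0.29 and 0.22 for the 4 of the core. Some members did not share the gap. Psme4 was at -0.0074 and -0.42, Psme2b at -0.17 and -0.33, and Psmd9 at -0.0079 and -0.16. In the core, the alpha ring gene Psma3 was at 0.13 and -0.024. Within the immunoproteasome Psmb8 (0.39 and 0.53) and Psmb10 (0.30 and 0.44) shared it, and Psmb9 was at 0.03 and 0.10. Across the 48 members, which all come from the same 4 libraries, the 2 gaps correlated with r = 0.795 and rho = 0.659, beside r = 0.595 across all genes. The letters follow column order, and the sign of these correlations depends on it. In the authors' regularized log values, sample number 2 was above number 1 in 46 of 48 members in resting and 44 in activated Treg. These are the same libraries on another scale, so the counts are no separate check. Numbers 1 and 2 ran in the order of A and B. Siglech, for example, was at 4.88 and 3.84 in resting and 12.4 and 10.3 in activated numbers 1 and 2, the order of its CPM.

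**Figure D4:**
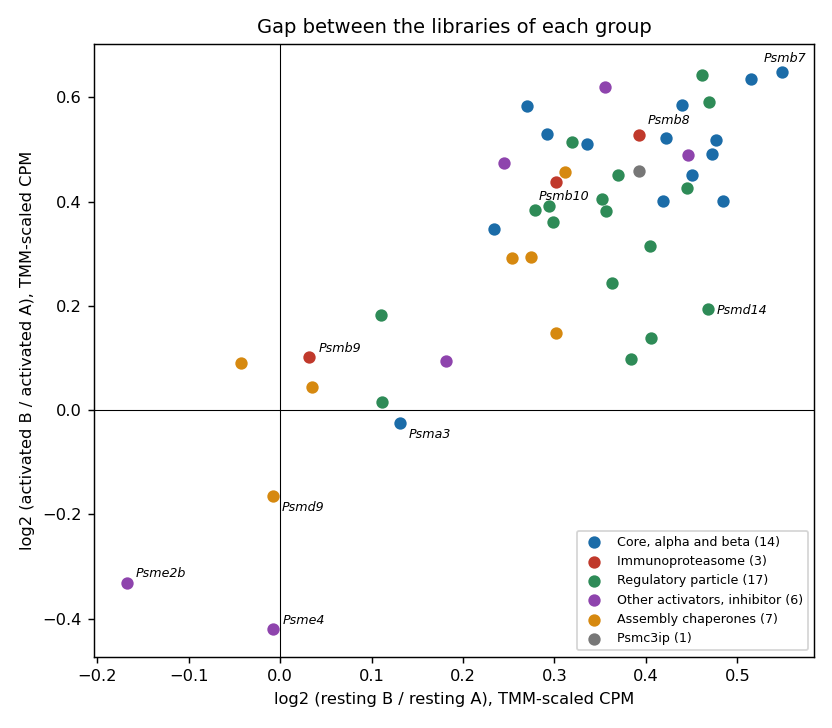
Log2 ratio of library B to library A in activated (vertical axis) against resting Treg (horizontal axis); each point is a tested member, coloured by role. Most points lie in the upper right, with Psmb7 the farthest (0.55 and 0.65), while Psmb9 lies near the centre (0.03 and 0.10). Psmd9, Psme2b, Psme4 and, slightly, Psma3 (-0.024) lie below 0 on the vertical axis.

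Other measures moved with these libraries. All 8 proliferation markers were higher in B in both groups, with median gaps of 2.32 in resting and 0.99 in activated Treg. All 10 macrophage and monocyte markers were higher in A in both groups, with median gaps of -4.60 and -3.20. Their part in the proteasome gap was not tested. Without activated B the median log2 fold change of the 14 core genes was -0.26, and without activated A it was 0.25. For the regulatory particle these values were -0.26 and 0.14. The sign of these medians, like that of the immunoproteasome, thus followed the library left out.

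Genes around the proteasome were read from lists of 58 genes in all that the filter let pass, and 0 passed by edgeR or by DESeq2. By edgeR's unadjusted p, 1 of the 58 was lower under 0.05 and 0 were higher, beside 2.61% and 6.3% of all genes. Of 12 partners and subunits outside the naming pattern, 7 lay above 0 (median 0.03). Pomp, the chaperone that matures the core, was the most abundant, at 172 and 250 CPM in the resting libraries and 170 and 266 in the activated ones. Its log2 fold change was 0.05 ± 0.31 and its gaps between libraries were 0.54 and 0.65. Sem1, a small subunit of the lid, had gaps of 0.52 and 0.44. Over the list B was above A in 8 of 12 genes in resting and 6 of 12 in activated Treg, with median gaps of 0.13 and -0.022, and Ecpas, a scaffold protein that binds the proteasome, was at -0.25 and -0.44. Uchl5, a deubiquitinase bound to the regulatory particle, was at 53.8 and 60.3 against 46.4 and 37.6 CPM (-0.44 ± 0.20). Ube3c (0.24 ± 0.20) and Zfand5 (0.24 ± 0.24) were the next by p in this list, and in neither did the groups overlap. Of the 12 genes the activated side was separate and higher in 2 and lower in 2, beside 19.8% and 17.4% of all genes.

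Of 10 genes that control subunit transcription, 5 lay above 0 (median 0.07). Over this list B was above A in 3 of 10 genes in resting and 2 of 10 in activated Treg, with median gaps of -0.11 and -0.33. Nfe2l1 was at 60.7 and 53.7 CPM in the resting libraries and 72.4 and 57.4 in the activated ones, lower in B in both groups. Its processing protease Ddi2 was lower in B too, at 102 and 74.2 against 109 and 61.6 CPM. Nfe2l2, the stress factor that binds the same motif, was at 123 and 87.6 against 88.5 and 57.5 CPM (-0.53 ± 0.29). Mafg, a small partner of these factors, was at 21.9 and 21.3 against 31.5 and 29.2 CPM, with no overlap (0.49 ± 0.19). Of the 10 genes the activated side was separate and higher in 2 and lower in 1, beside 19.8% and 17.4% of all genes. Maff was at 0.84 ± 0.54 from few counts, and Ngly1, the glycanase that activates Nfe2l1, at -0.21 ± 0.19.

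Among 16 genes that supply ubiquitin or carry tagged proteins, 8 lay above 0 (median -0.03). Ubb, a polyubiquitin gene, was at 1110 and 1470 CPM in the resting libraries and 1126 and 1708 in the activated ones, with gaps of 0.41 and 0.60. The list as a whole did not share them: B was above A in 8 of 16 genes in resting and 11 of 16 in activated Treg, with median gaps of -0.0015 and 0.19. Uba1, the main ubiquitin-activating enzyme, had gaps of 0.49 and 0.61, and Uba6, the other one, -0.08 and -0.58. The shuttle factor Ubqln1 (-0.21 ± 0.18) and the nuclear substrate carrier Midn (-0.26 ± 0.23) were among the genes with the smallest p of this list.

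Class I presentation, which uses proteasome products, had 7 of 12 genes above 0 (median 0.12). Tapbpl, a peptide editor, was at 154 and 141 against 182 and 170 CPM (0.25 ± 0.17), H2-K1 at 3944 and 3796 against 4100 and 4589 (0.17 ± 0.15), and H2-D1 at 5392 and 5845 against 6045 and 6369 (0.14 ± 0.15). In these 3 of the 12 genes the activated side was above with no overlap, beside 19.8% of all genes. Calr, a chaperone of class I folding, was at 0.37 ± 0.30. On the route from interferon gamma to the immunoproteasome genes, 3 of 8 genes lay above 0 (median -0.05). The activated side was below with no overlap in 4 of the 8 (Ifngr2, Jak1, Irf2 and Irf9), beside 17.4% of all genes, and above in 1 (Ifngr1). Ifngr2, a chain of the interferon gamma receptor, was the single gene under an unadjusted p of 0.05, at 86.5 and 64.4 CPM in the resting libraries and 49.3 and 32.3 in the activated ones (-0.88 ± 0.29, edgeR adjusted p = 0.455). It was called without the filter on low counts (edgeR adjusted p = 0.0178) and by limma on the regularized log2 values with the replicate block (adjusted p = 0.0432). Jak1 was at 1369 and 1169 against 1032 and 901 CPM (-0.39 ± 0.18) and Irf9 at -0.21 ± 0.16.

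Dendritic cell markers, whose summed level was higher in the activated libraries, were also higher in activated A than in B, with a median gap of -1.77 for the plasmacytoid and -1.59 for the conventional list. Psmb8, Psmb9, Psmb10, Psme1 and Psme2 were lower in activated A than in activated B, but so were most members (44 of 48). The part of these cells in the values was not tested.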

How the data were processed

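RNA sequencing was read in 2 resting and 2 activated Treg samples. Libraries were made with SMART-seq v4, a low-input cDNA kit, per the labels' protocols. Tools named in the submitters' processing notes are STAR 2.4.0c, featureCounts and DESeq2, with the build mm10. No source used here gives the annotation or the strand and multimapping settings. One deposited table holds raw counts per Ensembl gene, and the second deposited table holds regularized log2 values by the authors, scaled for depth and shrunk towards each gene's mean.

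Symbols, positions and exon lengths came from GENCODE M21 (mm10), which matched 37607 of 38924 identifiers. Counts were filtered with filterByExpr (minimum count 10, minimum total 15), scaled by TMM and fitted with edgeR 4.0.16 (R 4.3.3) on group alone over all 14235 genes, with Benjamini-Hochberg adjustment and a prior count of 2. The SE was derived from the fitted change and its F statistic, and intervals (95%) use 2 residual and 3.10 prior degrees of freedom. Both are approximate. Gaps between libraries are of log2(CPM + 0.5). Alternatives were RLE scaling, no filter, a prior count of 0.5, DESeq2 1.42.0, limma 3.58.1 (voom, or on the regularized log2 values with and without a replicate block), and each library left out. The procedure was also run on simulated counts in which every planted change was at least a doubling or halving. All member changes were smaller than that, so this run does not bear on them.

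The rule for named genes took the catalytic and PA28 genes, Psma8 and Psmb11, the 2 members of each other role with the smallest p, the highest and lowest levels, and 3 genes with the smallest p and the most abundant of each pathway list; other members are named for their gaps, chosen after their values were seen, as are Sem1, Ecpas, Nfe2l1, Ddi2, Uba1, Uba6, Irf2 and Ifngr1. Some genes that the rule or the lists take are not reported here. Members and lists were chosen with earlier results of these data known. Genes Shfm1, Paaf1 and Ufd1l of the lists did not match a symbol. Psmb5, Psmb6 and Psmb7 have named processed pseudogenes, and reads shared with them were not separated.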

Additional observations from a re-analysis of the deposited data

How the results depend on the processing

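In all 10 alternatives run on the member calls, 0 members were called and 0 had an unadjusted p under 0.05, by edgeR, DESeq2 or limma. Over all genes the count of calls, 0 in the edgeR fit, was 852 without a filter, 442 by DESeq2, 819 by limma on regularized log2 values with the replicate block, and, with 1 library left out, 370 (resting A), 198 (its B library), 0 (activated A) or 62 (activated B). Same-numbered samples of that table deviated together (r = 0.652 across genes), but the labels describe independent animals and there are only 2 pairs, so the numbers were not taken to pair samples; the smallest adjusted p of a member with the block was 0.318.

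With a library left out, medians ranged from -0.2609 to 0.2505 in the core, from -0.1137 to 0.3228 in the immunoproteasome, from -0.2601 to 0.1465 in the regulatory particle, from -0.2765 to -0.1214 in the assembly chaperones and from -0.2319 to 0.1887 over all members. Named members had the other sign in 30 of 231 settings. Apart from single libraries left out, this was Psmb5 without a filter (-0.01641), by voom (-0.01795) and on regularized log2 values with and without the block (-0.006741), and Psmb6 without a filter (-0.004055). Over single libraries left out, values ranged from -0.2208 to 0.3228 for Psmb8, from -0.1137 to 0.3393 for Psmb10, from -0.3046 to 0.2983 for Psmb5, from -0.2585 to 0.2864 for Psmb6, from -0.4824 to 0.1846 for Psmb7, from -0.1498 to 0.3404 for Psme1, from -0.1474 to 0.4878 for Psme2, from -0.2256 to 0.3755 for Psma7, from -0.4413 to 0.2105 for Psma2, from -0.1075 to 0.2563 for Psmb3, from -0.3222 to 0.157 for Psmb4, from -0.3583 to 0.1088 for Psmc4, from -0.3967 to 0.06707 for Psmd14, from -0.1214 to 0.03063 for Psmd9, from -0.3154 to 0.3457 for Pomp and from -0.202 to 0.4139 for Ubb. Ifngr2 was called without a filter (adjusted p = 0.0178) and with the replicate block (adjusted p = 0.0432). The interferon-stimulated response element matched 5 members in the whole promoter window, against 3. The design of 2 libraries a group limits the precision of every comparison.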
